A study of Danio rerio with 6 samples.

Results

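The granulin genes of zebrafish are grn1, grn2, grna and grnb. All rows of the expression table with one of these names were taken, which gave 4 genes of the 32520 in the table. The family was chosen by the measured level of grn2, which is far higher in GFP+DsRed- than in GFP+DsRed+ cells, so comparisons of its members between these cells are given as a description, without a test. The libraries were made from mpeg1-GFP+ skin cells of untreated adult zebrafish aged 3 months, and they fall into 3 groups of 2. In the first group, GFP+DsRed- cells came from the double mutant csf1rDM, homozygous for csf1ra j4e1 and for csf1rb sa1503, alleles of the paired zebrafish genes of the colony stimulating factor 1 receptor. The other groups, GFP+DsRed- and GFP+DsRed+, were sorted from control fish, wild type for these receptors. Fish of all groups carried tg(mpeg1-EGFP), tg(Kdrl:Cre) and tg(act2b:loxP-STOP-loxP-DsRedexpress). Cre driven by the kdrl promoter acts in the endothelium from which blood stem cells arise, so DsRed permanently marks their descendants. Macrophages of the primitive wave, which arise outside that endothelium, would also lack DsRed, which limits what the absence of the mark says. The study's authors state that this wave seems to add no mpeg1+ cells to adult skin. They also state that primitive macrophages appear nearly absent in fish without the receptors. Neither point was tested here. Whether each library came from separate or pooled fish is not given in the sources used here, so the p-values measure only the spread between these libraries.

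Progranulin is a secreted glycoprotein built of cysteine-rich granulin modules. The receptor sortilin, or a partner protein, prosaposin, brings it to the lysosome, where cathepsins cut it into separate granulins. In mammals it is made by macrophages, microglia and epithelia, and its loss in humans causes frontotemporal dementia or neuronal ceroid lipofuscinosis. Zebrafish grna and grnb are the counterparts of the mammalian gene, whereas grn1 and grn2 encode much shorter proteins with fewer granulin modules. In the RefSeq gene table of assembly GRCz12tu, used here for names and neighbourhood only, grn1 and grn2 are named grna.1 and grna.2. They are neighbouring coding genes on chromosome 19, and the span of a long non-coding RNA gene, grnas, covers both. The gene grna lies on chromosome 3 and grnb on chromosome 24.

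Depth, taken here as reads counted in genes, was 4026000 to 14826000 per library, estimated from the step between low values. The study states a larger average number of mapped reads, which is another measure. An estimated 3 reads corresponded to 0.202 to 0.745 CPM, the value of a gene per 1000000 of its library's total. All 4 members passed the filter of 1 CPM in 2 libraries, as did 20382 genes in all. An estimated 138 or more reads lay behind every member value. Across genes, log levels correlated with r between 0.958 and 0.978 within groups. The mutated csf1ra was at 1.40 and 2.25 CPM in csf1rDM GFP+DsRed- samples, 102 and 86.9 CPM in control GFP+DsRed- samples, and 1081 and 1124 CPM in control GFP+DsRed+ samples. The summed level of 9 leukocyte and macrophage markers was 357 and 244 CPM in csf1rDM GFP+DsRed- samples, 546 and 281 CPM in control GFP+DsRed- samples, and 4391 and 5103 CPM in control GFP+DsRed+ samples. This sum includes csf1ra itself, so part of its difference between the genotypes is the level of the mutated gene. In csf1rDM GFP+DsRed- cells the macrophage gene mfap4 was at 0 in both libraries. It reached no more than 0.799 CPM in control GFP+DsRed- cells, so few reads lie behind this difference (limma adjusted p = 0.204). The 4 epithelial and metaphocyte markers summed to 3582 and 3620 CPM in csf1rDM GFP+DsRed- samples, 3162 and 3109 CPM in control GFP+DsRed- samples, and 1172 and 978 CPM in control GFP+DsRed+ samples, so that epithelial markers were detected in every library, including the marked ones.

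The granulin genes did not share one pattern. Transcripts of grn2 were abundant in GFP+DsRed- cells of both genotypes and scarce in GFP+DsRed+ cells, whereas grn1, grna and grnb were highest in GFP+DsRed+ cells. Of grn2 (ENSDARG00000088641) there were 621 and 702 CPM in csf1rDM GFP+DsRed- samples, 634 and 311 CPM in control GFP+DsRed- samples, and 17.5 and 16.9 CPM in control GFP+DsRed+ samples. Both groups of GFP+DsRed- libraries lay far above the marked libraries and overlapped each other. The mean level was 662 ± 57.0 CPM for csf1rDM GFP+DsRed-, 472 ± 228 CPM for control GFP+DsRed- and 17.2 ± 0.427 CPM for control GFP+DsRed+ cells (SD, n = 2 each).

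Its neighbour grn1 (ENSDARG00000089362) went the other way. It was at 32.5 and 34.3 CPM in csf1rDM GFP+DsRed- samples, 34.3 and 18.7 CPM in control GFP+DsRed- samples, and 209 and 191 CPM in control GFP+DsRed+ samples. The marked libraries were the high ones, and the groups of GFP+DsRed- libraries overlapped. Mean levels of grn1 were 33.4 ± 1.24 CPM for csf1rDM GFP+DsRed-, 26.5 ± 11.1 CPM for control GFP+DsRed- and 200.2 ± 12.6 CPM for control GFP+DsRed+ cells (SD, n = 2 each).

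The full-length type gene grna (ENSDARG00000004954) was at 171 and 201 CPM in csf1rDM GFP+DsRed- samples, 145 and 118 CPM in control GFP+DsRed- samples, and 727 and 789 CPM in control GFP+DsRed+ samples. All 3 groups were separate for this gene, with the marked cells highest and the control GFP+DsRed- cells lowest. Its means were 186 ± 21.1 CPM for csf1rDM GFP+DsRed-, 131 ± 18.8 CPM for control GFP+DsRed- and 758 ± 44.1 CPM for control GFP+DsRed+ cells (SD, n = 2 each). The second full-length type gene, grnb (ENSDARG00000025081), had the same order of groups with a narrower range. It was at 45.7 and 40.5 CPM in csf1rDM GFP+DsRed- samples, 35.1 and 27.8 CPM in control GFP+DsRed- samples, and 68.5 and 80.3 CPM in control GFP+DsRed+ samples. The means were 43.1 ± 3.67 CPM for csf1rDM GFP+DsRed-, 31.5 ± 5.19 CPM for control GFP+DsRed- and 74.4 ± 8.36 CPM for control GFP+DsRed+ cells (SD, n = 2 each), and no library of one group reached into another.

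**Figure D1:**
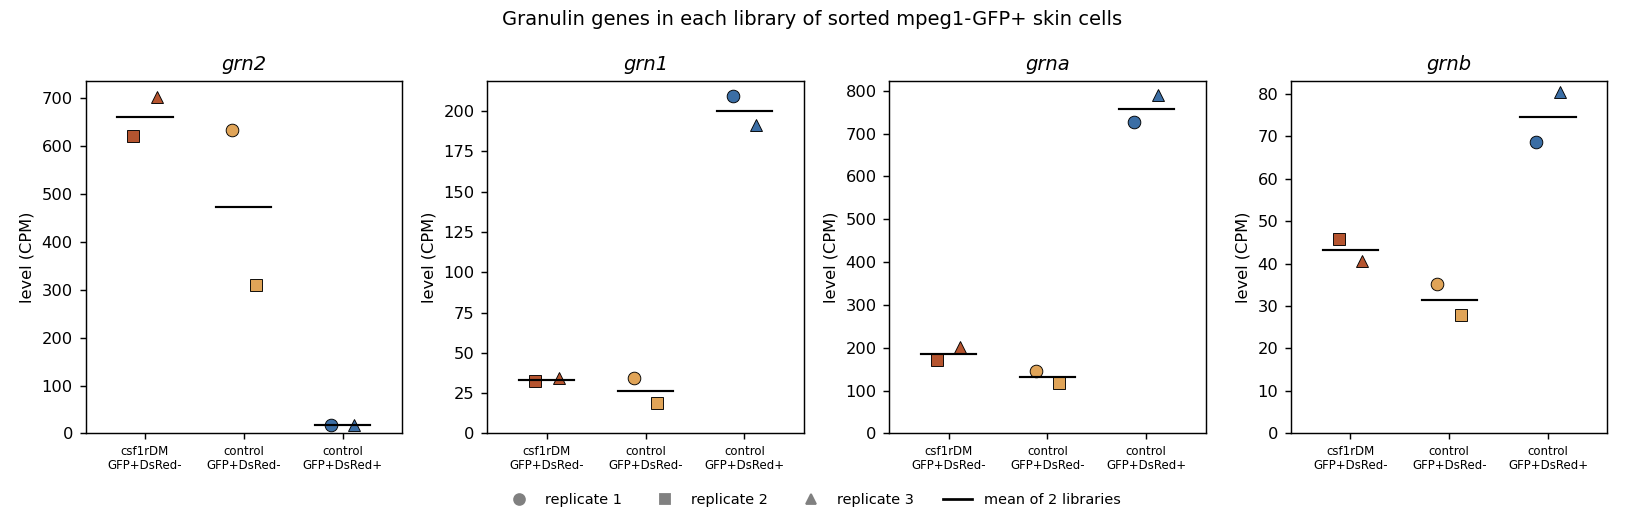
Level of each granulin gene in CPM (y axis, linear and starting at 0, with its own scale per gene) in the 6 libraries. Symbols give the replicate number and black lines the mean of the 2 libraries of a group; grn2 lies above 300 CPM in all GFP+DsRed- libraries and below 18 CPM in GFP+DsRed+ libraries, and the other genes are highest in GFP+DsRed+ libraries.

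The comparison of csf1rDM with control GFP+DsRed- cells asks whether levels in sorted cells without the blood lineage mark differed with loss of the receptors. Xanthophore markers summed to 3.40 and 2.00 CPM in csf1rDM GFP+DsRed- samples, against 407 and 355 CPM in control GFP+DsRed- samples. Fibroblast markers were lower as well, so altered cells and an altered mix of cells cannot be told apart. The rule that chose the genes did not use this comparison, although earlier results of these data were known when they were chosen. All 4 members had a higher fitted level in csf1rDM cells, where the median log2 fold change of all genes was -0.05. Each member was lower in control GFP+DsRed- replicate 2 than in replicate 1, so the shared sign is not 4 separate observations. None of the members passed an adjusted p below 0.05 in limma. At an unadjusted p below 0.05 there were 3 of 4, where 26.7% of all genes tested reached that level and 6.51% passed after adjustment. The log2 fold change of grna was 0.65 ± 0.15 (SE, 95% interval 0.28 to 1.01, adjusted p = 0.0553 by limma with Benjamini-Hochberg adjustment over all genes). That of grnb was 0.60 ± 0.18 (95% interval 0.18 to 1.01, limma adjusted p = 0.0869). These were the members whose groups did not overlap in CPM, 2 of 4, both higher in csf1rDM cells, as was the case for 19.3% of all genes.

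For grn2 the log2 fold change between the genotypes was 0.72 ± 0.28 (SE, 95% interval 0.05 to 1.40, limma adjusted p = 0.164), and for grn1 it was 0.53 ± 0.25 (95% interval -0.06 to 1.12, limma adjusted p = 0.230). Their groups overlapped, since control GFP+DsRed- replicate 1 lay at the level of the csf1rDM libraries. The value of grn2 was 0.26 without control GFP+DsRed- replicate 2 and 1.21 without control GFP+DsRed- replicate 1. That of grn1 was 0.16 and 0.92 without the same libraries. The scaling for library composition raised the median change of all genes by 0.13 in this comparison, to -0.05, and with median-of-ratios factors in its place grna had 0.69 and an adjusted p of 0.0483 (limma; 0.0483 to 0.277 over 14 alternatives).

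The control GFP+DsRed- libraries differed from each other in grn2 and grn1 more than in most genes. The higher library exceeded the lower 2.04-fold for grn2, a gap that 2.58% of 13011 genes above 5 CPM in both libraries matched, against a median gap of 1.16-fold. For grn1 the gap was 1.84-fold, matched by 4.51% of these genes. The full-length type genes were closer, with 1.22-fold for grna and 1.26-fold for grnb. Replicate 1 was also higher in mpeg1.1, the gene whose promoter drives the sorting reporter (2.33-fold), in the myeloid transcription factor gene spic (97.5 CPM, and 44.3 CPM in replicate 2) and in the leukocyte cytoskeleton genes coro1a (2.18-fold) and lcp1 (2.48-fold). Of the epithelial and metaphocyte list, cdh1 differed by 1.02-fold and epcam by 1.05-fold, whereas cldnh was 1.54-fold higher in replicate 1. Every gene of the leukocyte list was higher in replicate 1, from 1.18-fold for csf1ra and 1.53-fold for ptprc to 3.33-fold for marco. The sum of this list was 546 CPM in replicate 1 and 281 CPM in replicate 2. The size of the gap thus varied within both lists, and the gaps of marco, c1qa and mfap4 rest on low levels. Summed keratinocyte markers were 19726 CPM in replicate 1 and 25712 CPM in replicate 2. Their part in the gap of grn2 was not tested. In bulk samples such as these, fewer cells of a type and less RNA per cell cannot be told apart.

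Between GFP+DsRed- and GFP+DsRed+ cells of control fish, the log2 fold change of grn2 was 4.40 ± 0.28 (SE), and the means differed 27.5-fold. This was the 15th highest of 20382 log2 fold changes. In the same comparison grn1 had -3.14 ± 0.25, grna -2.74 ± 0.15 and grnb -1.43 ± 0.18, and their mean levels were lower in GFP+DsRed- cells, 7.55-fold for grn1, 5.76-fold for grna and 2.37-fold for grnb. Groups did not overlap for any of the members, 1 higher and 3 lower, where 47.5% of all genes were higher and 24.2% lower without overlap.

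Between csf1rDM GFP+DsRed- cells and the same control GFP+DsRed+ libraries, grn2 had a log2 fold change of 5.12 ± 0.28 (SE), with a 38.5-fold difference of means, the 11th highest of 20382. The change was -2.61 ± 0.25 for grn1, -2.09 ± 0.15 for grna and -0.84 ± 0.18 for grnb. Mean levels were lower in csf1rDM cells, 5.99-fold for grn1, 4.08-fold for grna and 1.73-fold for grnb. As in control fish, 1 member lay above and 3 lay below the marked libraries without overlap, where 32.7% of all genes lay above and 34.4% below. Because both comparisons use the same GFP+DsRed+ libraries and these groups chose the family, nothing is read from their likeness.

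**Figure D2:**
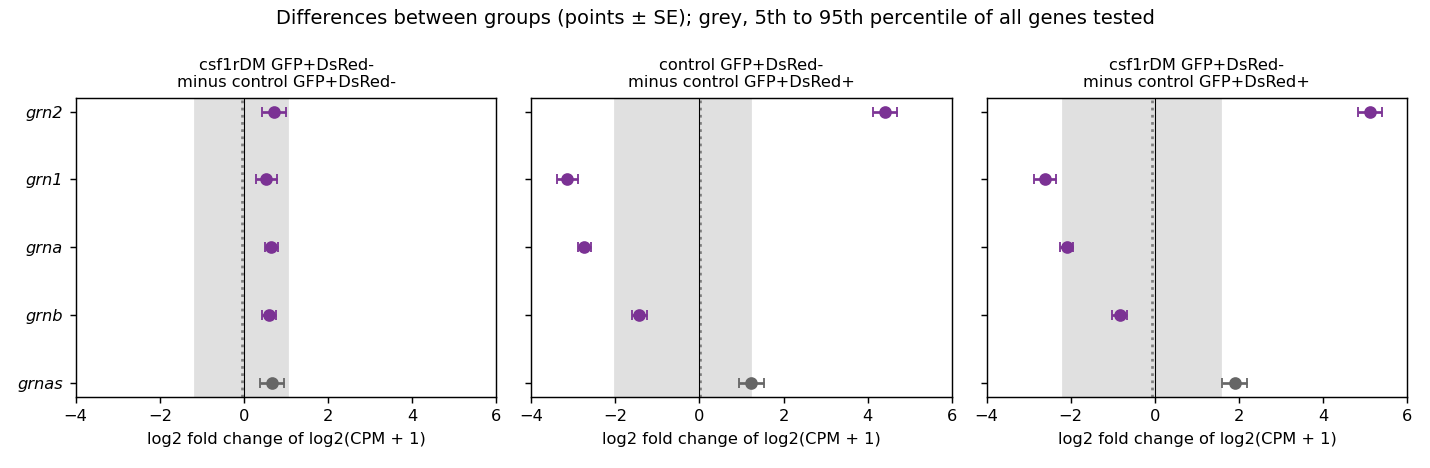
Log2 fold change of log2(CPM + 1) (x axis) of the granulin genes and of the overlapping RNA gene grnas in the 3 comparisons; bars are the standard error, the grey band runs from the 5th to the 95th percentile of all 20382 genes and the dotted line is their median. All members lie inside the band between the genotypes, and grn2 lies far above it in both comparisons with GFP+DsRed+ cells, at 4.40 and 5.12.

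The opposite patterns of the chromosome 19 neighbours were clearest as a ratio within each library. Because transcript lengths were not used, the ratio compares libraries and does not say which gene made more molecules. The ratio of grn2 to grn1 in CPM was 19.1 and 20.5 in csf1rDM GFP+DsRed- samples, 18.5 and 16.6 in control GFP+DsRed- samples, and 0.0836 and 0.0883 in control GFP+DsRed+ samples. It was thus alike in both control GFP+DsRed- libraries although grn2 itself differed 2.04-fold between them. Levels of grn1 and grn2 summed to 654 and 736 CPM in csf1rDM GFP+DsRed- samples, 668 and 330 CPM in control GFP+DsRed- samples, and 227 and 208 CPM in control GFP+DsRed+ samples. How reads shared between such neighbouring copies were assigned is not given in the sources used here, so their separate levels carry that uncertainty.

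The ratio of grn2 to mpeg1.1 was 4.90 and 7.15 in csf1rDM GFP+DsRed- samples, 4.22 and 4.83 in control GFP+DsRed- samples, and 0.0146 and 0.0107 in control GFP+DsRed+ samples. The control GFP+DsRed- replicates, which differed 2.04-fold in grn2, were thus closer once set against mpeg1.1, whereas the csf1rDM replicates, which differed 1.13-fold in grn2, were further apart. The ratio of grna to mpeg1.1 was 1.35 and 2.04 in csf1rDM GFP+DsRed- samples, 0.963 and 1.84 in control GFP+DsRed- samples, and 0.607 and 0.499 in control GFP+DsRed+ samples. Here the control GFP+DsRed- replicates lay further apart than for grna alone. Set against mpeg1.1, grna was higher in every GFP+DsRed- than GFP+DsRed+ library, the reverse of its order in CPM. The ratio of grn1 to mpeg1.1 reversed likewise, with 0.257 and 0.349 in csf1rDM GFP+DsRed-, 0.228 and 0.290 in control GFP+DsRed-, and 0.175 and 0.121 in control GFP+DsRed+ samples. Mean mpeg1.1 was itself 12.9-fold lower in control GFP+DsRed- than GFP+DsRed+ cells. Between the full-length type genes, the ratio of grna to grnb was 3.74 and 4.95 in csf1rDM GFP+DsRed- samples, 4.12 and 4.26 in control GFP+DsRed- samples, and 10.6 and 9.82 in control GFP+DsRed+ samples, so grna differed more between marked and unmarked cells than grnb did.

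The non-coding gene grnas (ENSDARG00000091885), named granulin antisense, was at 483 and 536 CPM in csf1rDM GFP+DsRed- samples, 513 and 249 CPM in control GFP+DsRed- samples, and 134 and 126 CPM in control GFP+DsRed+ samples. Its log2 fold change between control GFP+DsRed- and GFP+DsRed+ cells was 1.24 ± 0.29 (SE), and between csf1rDM GFP+DsRed- and control GFP+DsRed+ cells it was 1.90 ± 0.29, given without a test because grnas overlaps grn2, which chose the family. Between the genotypes it was 0.66 ± 0.29 (limma adjusted p = 0.199). The ratio of its level to the sum of grn1 and grn2 was 0.739 and 0.728 in csf1rDM GFP+DsRed- samples, 0.767 and 0.755 in control GFP+DsRed- samples, and 0.591 and 0.605 in control GFP+DsRed+ samples. The ratio was lower in both GFP+DsRed+ libraries, in which grn1 rather than grn2 supplied most of the sum, than in any GFP+DsRed- library. Whether reads were counted by strand is not given in the sources used here, so reads of grnas and of the genes it overlaps cannot be told apart.

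**Figure D3:**
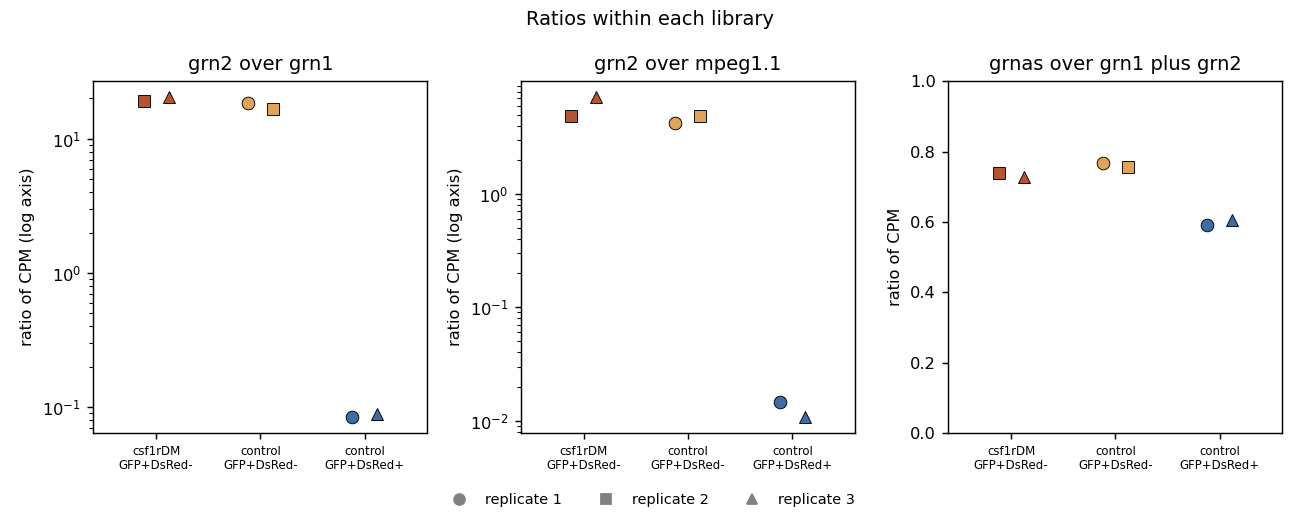
Ratios of CPM within each of the 6 libraries, for grn2 over grn1 and grn2 over mpeg1.1 (log axes) and for grnas over the sum of grn1 and grn2 (linear axis from 0). The ratio of grn2 to grn1 lies between 16.6 and 20.5 in GFP+DsRed- libraries and at 0.0836 and 0.0883 in GFP+DsRed+ libraries.

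Markers of some other cells differed between groups and are given beside these levels. Not all lists did. Summed endothelium markers overlapped between all groups, from 34.5 to 105 CPM, and B cell sums were no more than 3.45 CPM. Summed markers of keratinocytes, 7 of 7 found, were 21518 and 17664 CPM in csf1rDM GFP+DsRed- samples, 19726 and 25712 CPM in control GFP+DsRed- samples, and 13582 and 8592 CPM in control GFP+DsRed+ samples. The 6 xanthophore markers summed to 3.40 and 2.00 CPM in csf1rDM GFP+DsRed- samples, 407 and 355 CPM in control GFP+DsRed- samples, and 22.4 and 27.4 CPM in control GFP+DsRed+ samples. In the csf1rDM GFP+DsRed- libraries xdh and slc2a15a of this list were at 0 and none of its genes exceeded 1.60 CPM. The 4 fibroblast markers were at 2835 and 1093 CPM in csf1rDM GFP+DsRed- samples, 10307 and 9130 CPM in control GFP+DsRed- samples, and 4616 and 4580 CPM in control GFP+DsRed+ samples. The 4 T cell markers found of 5 summed to 18.2 and 13.2 CPM in csf1rDM GFP+DsRed- samples, 17.0 and 11.4 CPM in control GFP+DsRed- samples, and 176 and 174 CPM in control GFP+DsRed+ samples. Of these, cd4-1 and cd8a were higher in the GFP+DsRed+ libraries, whereas lck overlapped between the control groups (6.55 to 11.4 CPM) and zap70 was highest in the csf1rDM libraries. The study names cd4-1 in the metaphocyte signature of its GFP+DsRed- cells. Here cd4-1 was at 0.50 to 2.15 CPM in GFP+DsRed- libraries and at 63.1 and 87.4 CPM in GFP+DsRed+ libraries. The 7 rows of the 6 neutrophil markers summed to 24.1 and 49.3 CPM in csf1rDM GFP+DsRed- samples, 8.14 and 6.35 CPM in control GFP+DsRed- samples, and 358 and 301 CPM in control GFP+DsRed+ samples. Most of the sum in GFP+DsRed+ libraries was csf3r (353 and 296 CPM), mpx reached 30.3 CPM in csf1rDM replicate 3, a row of mmp13a was at 17.3 and 13.7 CPM in the csf1rDM libraries, and lyz had no more than 0.849 CPM in any library. The part of these cells in the granulin levels was not tested.

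Other genes with the pattern of each member were sought by the smallest root mean square difference in log2(CPM + 1) over the 6 libraries, after centring each gene. The 6 points come from 3 groups, so the likeness compares few independent levels. Nearest to grn2 was mctp2b, with a difference of 0.383 and r = 0.990, followed by chia.6 of the acidic chitinase family at 0.410 and the receptor tyrosine phosphatase gene ptprjb.1 at 0.473. The level of mctp2b was 102 and 64.4 CPM in csf1rDM GFP+DsRed- samples, 97.1 and 48.4 CPM in control GFP+DsRed- samples, and 3.30 and 2.00 CPM in control GFP+DsRed+ samples. Like grn2, it was high in both groups of GFP+DsRed- libraries and higher in control replicate 1 than in replicate 2.

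Nearest to grn1 were soat1, which encodes a cholesterol esterifying enzyme, at 0.137, the prostacyclin receptor gene ptgir at 0.155, and the proton pump subunit gene tcirg1b at 0.163. For grna the nearest gene was ctsz, which encodes the lysosomal protease cathepsin Z, at 0.0767 (r = 1.00). It was at 113 and 136 CPM in csf1rDM GFP+DsRed- samples, 92.6 and 75.7 CPM in control GFP+DsRed- samples, and 515 and 588 CPM in control GFP+DsRed+ samples. The microRNA gene dre-mir-142a, at 0.0959, had no more than 5.35 CPM in any library, and the lysozyme gene lygl1 followed at 0.0964. For grnb the nearest gene was rpz3 at 0.0436, with no more than 5.70 CPM in any library. It was followed by vac14 at 0.0462, which encodes a scaffold of the lipid kinase complex of late endosomes, and the transcriptional repressor gene bach1a at 0.0641. At the low levels of rpz3 and dre-mir-142a, the 1 added to CPM narrows differences, which bears on their rank.

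The genes through which progranulin is carried, cut and used were taken as 4 lists of 62 names, of which 58 genes were tested. The lists were chosen with earlier results of these data known. Their counts and p-values therefore describe the lists and are no independent support for the granulin pattern. A gene was called if its log2 fold change was above 2 or below -2 and its adjusted p was below 0.05. Between control GFP+DsRed- and GFP+DsRed+ cells, 0 of 58 were called higher and 19 lower, 32.8% in all, where 6.02% of all genes were called (1.04% higher and 4.98% lower). Between csf1rDM GFP+DsRed- and control GFP+DsRed+ cells, 1 was called higher and 19 lower, 34.5% in all, where 8.09% of all genes were called (2.44% higher and 5.64% lower). The leukocyte marker sum of 244 to 546 CPM in GFP+DsRed- libraries and 4391 to 5103 CPM in GFP+DsRed+ libraries moved with these counts, and its part in them was not tested.

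Among 10 receptor and carrier genes, psap and igf2r were called lower in control GFP+DsRed- than GFP+DsRed+ cells, and the median log2 fold change was -0.59, beside 0.03 for all genes. Prosaposin, the product of psap, binds progranulin on its way to the lysosome. Its gene was at 396 and 425 CPM in csf1rDM GFP+DsRed- samples, 352 and 322 CPM in control GFP+DsRed- samples, and 1980 and 2094 CPM in control GFP+DsRed+ samples. The log2 fold change against control GFP+DsRed+ cells was -2.81 ± 0.14 in control GFP+DsRed- cells (limma adjusted p = 8.54e-05) and -2.37 ± 0.14 in csf1rDM GFP+DsRed- cells (limma adjusted p = 9.21e-05). The mannose 6-phosphate receptor gene igf2r had -2.25 ± 0.16 in control cells (limma adjusted p = 0.000158). The sortilin genes, named after their values were seen, were not among the called genes. For sort1a, at 13.4 and 19.6 CPM in csf1rDM GFP+DsRed- samples, 32.4 and 24.3 CPM in control GFP+DsRed- samples, and 10.5 and 11.9 CPM in control GFP+DsRed+ samples, the change between the control groups was 1.05 ± 0.24 (limma adjusted p = 0.0196). For sort1b it was -0.34 ± 0.26 (limma adjusted p = 0.382).

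Of 18 protease genes tested, 8 were called lower in control GFP+DsRed- than GFP+DsRed+ cells and 0 higher, with a median of -2.06, and 8 were called lower in csf1rDM GFP+DsRed- cells with a median of -1.35. The gene of the aspartyl protease cathepsin D, ctsd, was at 158 and 155 CPM in csf1rDM GFP+DsRed- samples, 68.6 and 62.6 CPM in control GFP+DsRed- samples, and 830 and 717 CPM in control GFP+DsRed+ samples. All 3 groups were apart. Between the control groups its log2 fold change was -3.75 ± 0.15 (limma adjusted p = 8.54e-05), and between csf1rDM GFP+DsRed- and control GFP+DsRed+ cells -2.36 ± 0.15 (limma adjusted p = 0.000108). The cathepsin S gene ctss2.1 had -3.92 ± 0.20 and the dipeptidyl peptidase gene ctsc -3.32 ± 0.18 between the control groups (limma adjusted p = 8.54e-05 for both). The legumain gene lgmn, an asparaginyl endopeptidase of the lysosome, had -3.05 ± 0.21 and ctsz -2.21 ± 0.16 in csf1rDM GFP+DsRed- against control GFP+DsRed+ cells (limma adjusted p = 0.000134 and 0.000169).

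Lysosomal genes tied to progranulin numbered 21, of which 6 were called lower between the control groups (median -1.50) and 7 lower between csf1rDM GFP+DsRed- and control GFP+DsRed+ cells (median -1.08), with 0 called higher in either. They included genes of sphingolipid breakdown. The acid sphingomyelinase gene smpd1 was at 38.6 and 33.3 CPM in csf1rDM GFP+DsRed- samples, 40.4 and 27.5 CPM in control GFP+DsRed- samples, and 303 and 305 CPM in control GFP+DsRed+ samples. Between the control groups its log2 fold change was -3.36 ± 0.19 (limma adjusted p = 9.38e-05). The acid ceramidase gene asah1b had -2.97 ± 0.17 and the beta-galactosidase gene glb1 -2.77 ± 0.17 (limma adjusted p = 9.08e-05 and 0.000117).

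Of 9 signalling partners, tnfrsf1b, tnfb and tnfa were called lower in both comparisons with GFP+DsRed+ cells, and epha2a was the gene called higher, in csf1rDM GFP+DsRed- cells. The tumour necrosis factor receptor gene tnfrsf1b was at 37.3 and 43.7 CPM in csf1rDM GFP+DsRed- samples, 42.8 and 35.3 CPM in control GFP+DsRed- samples, and 284 and 345 CPM in control GFP+DsRed+ samples. Its log2 fold change was -3.19 ± 0.17 between the control groups (limma adjusted p = 8.54e-05). The ephrin receptor gene epha2a, whose mammalian product is a progranulin receptor, was at 139 and 140 CPM in csf1rDM GFP+DsRed- samples, 73.8 and 56.0 CPM in control GFP+DsRed- samples, and 18.9 and 32.3 CPM in control GFP+DsRed+ samples. It had 2.39 ± 0.25 between csf1rDM GFP+DsRed- and control GFP+DsRed+ cells (limma adjusted p = 0.000642). The list medians were -0.55 between the control groups and -0.48 between csf1rDM GFP+DsRed- and control GFP+DsRed+ cells.

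Between csf1rDM and control GFP+DsRed- cells, 0 of the 58 genes were called by limma with the fold threshold, where 1.56% of all genes were. An unadjusted p below 0.05 was reached by 25 of them, where 26.7% of all genes reached it. An adjusted p below 0.05 alone was reached by 16, of which 15 were higher in csf1rDM cells, where 3.24% of all genes were higher at that level. Proteases supplied 8 of them, all higher, namely ctsd, ctss2.1, ctsk, ctsla, ctsc, ctsba, ctss2.2 and ctsz, and the median of the protease list was 0.82, beside -0.05 for all genes. The change of ctsd was 1.39 ± 0.15 (SE, limma adjusted p = 0.00617). The cathepsin L gene ctsla, of the family that cuts mammalian progranulin, was at 333 and 364 CPM in csf1rDM GFP+DsRed- samples, against 222 and 165 CPM in control GFP+DsRed- samples, a change of 1.01 ± 0.17 (limma adjusted p = 0.0245). These names fall outside the rule for named genes and were chosen after their values were seen, as were those of igf2r (0.81 ± 0.16, limma adjusted p = 0.0332) and of gpnmb, the gene that was lower (-1.89 ± 0.31, limma adjusted p = 0.0222). The gpnmb gene was highest in control GFP+DsRed+ samples, at 28.4 and 18.0 CPM, against 7.94 and 5.50 CPM in control GFP+DsRed- samples. It also marks iridophores. Their 4 markers, gpnmb included, summed to 6.15 and 12.2 CPM in csf1rDM GFP+DsRed- samples, against 64.9 and 56.9 CPM in control GFP+DsRed- samples. The part of iridophores or of blood-derived cells was not tested. The count of 16 was 0 without control GFP+DsRed- replicate 2, 1 without control GFP+DsRed- replicate 1, 2 without csf1rDM GFP+DsRed- replicate 3, and 7 without either GFP+DsRed+ library. The 8 proteases became 0, 1, 2 and 4 in the same order.

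**Figure D4:**
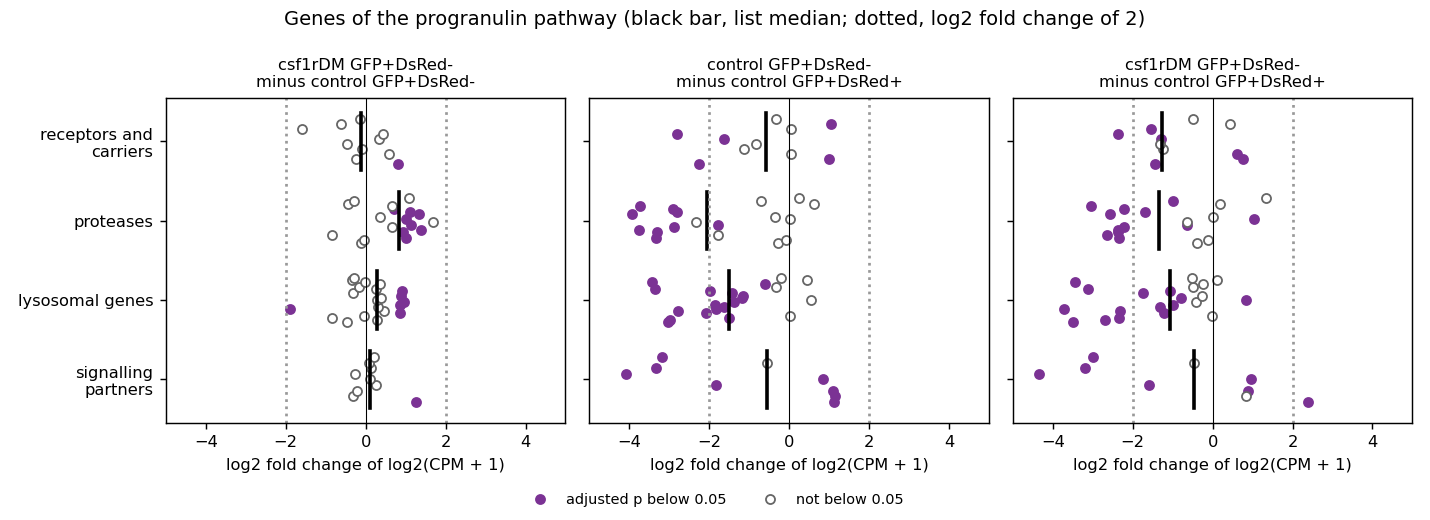
Log2 fold change of log2(CPM + 1) (x axis) of the 58 tested genes of the progranulin pathway, by list (rows) and comparison (panels). Filled points passed an adjusted p below 0.05, the black bar is the median of a list and dotted lines mark a log2 fold change of 2 in either direction; the protease median is at 0.82 between the genotypes and at -2.06 between the control groups.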

How the data were processed

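RNA of FACS-sorted skin cells was made into 6 libraries with the Ovation SoLo kit. According to the submitters' processing notes, reads were processed with STAR (2.5.4b), HTSeq (0.11.0) and edgeR on GRCz11. The values the authors deposited are a signal derived from gene counts: each library was scaled to a total of 20008939 to 20013750 and rounded up, as read from the steps of low values, which were whole multiples after rounding up in at least 99.6% of cases. That share counts zeros, which always match, and the step was fitted to the same values, so it is a weak check. Values were divided by the library total to give CPM, scaled by TMM factors (0.922 to 1.13) and tested as log2(CPM + 1) with limma 3.58.1 (R 4.3.3, empirical Bayes with trend) on all 6 libraries, with 1 coefficient per group and Benjamini-Hochberg adjustment. Fold changes on this scale understate those of low genes. The filter was 1 CPM in 2 libraries. The planned count tests were not run because the table holds no counts. The script was tested on simulated data. Groups were taken from sample titles and the study's description. The members and gene lists were chosen with earlier results of these data known. Named genes were the members, the 3 nearest genes of each by pattern and up to 3 called genes per list and comparison with the smallest adjusted p. The names psapl1, scarb2b, adamts7 and lamp1 matched no row, and lrp1ba and ctslb matched 2 each. The rows of ctslb were at 0 CPM in every library and were not tested. Alternatives were other scalings, filters and pseudocounts, a replicate block, a fit of 2 groups and leaving out each library. Figures were drawn with matplotlib 3.10.9.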

Additional observations from a re-analysis of the deposited data

How the results depend on the processing

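Across the 14 alternatives run in each comparison, the log2 fold change of no granulin gene changed sign. Between the genotypes, leave-one-out values were 0.54 to 0.77 for grna, 0.48 to 0.73 for grnb, 0.26 to 1.21 for grn2 and 0.16 to 0.92 for grn1, and grna alone passed the threshold in 1 alternative, with median-of-ratios factors (0.69, limma adjusted p = 0.0483). Between the control groups, leave-one-out values were 3.91 to 4.86 for grn2, -3.54 to -2.77 for grn1 and -2.86 to -2.64 for grna, and with library totals alone grna had -2.52 and grnb -1.22. The number of genes called between the genotypes was 317, and became 496 with a pseudocount of 0.25, 123 with a pseudocount of 5 and 111 to 508 on leaving out a library (508 without csf1rDM GFP+DsRed- replicate 2, 170 without control GFP+DsRed- replicate 1 and 111 without control GFP+DsRed- replicate 2). With a pseudocount of 5, 713 in place of 1227 genes were called between the control groups and 889 in place of 1648 between csf1rDM GFP+DsRed- and control GFP+DsRed+ cells; leaving out a library gave 995 to 1329 and 1350 to 1835. Counts of pathway genes under the alternatives were added after seeing the data. Between the genotypes, the 16 pathway genes with an adjusted p below 0.05 became 6 with library totals alone, 7 without a filter, 6 in a fit of only the groups compared and 0 to 14 on leaving out a library, and the 8 proteases became 4, 4, 4 and 0 to 9; the cause was not tested. Under a replicate block, 67 genes were called between the genotypes, against 1183 and 1670 in the comparisons with GFP+DsRed+ cells. By an adjusted p below 0.05 alone, 0 pathway genes and 0 proteases passed between the genotypes under this block. Each pair of groups shares 1 replicate number, and deviations of same-numbered libraries correlated with r = 0.03, 0.02 and -0.42 across genes. The 2 libraries of a group deviate from their mean in opposite directions by construction. These values therefore cannot decide whether the numbers pair the samples, and the main fit did not pair them. The planned count-model tests on whole reads were not run, since the table holds a scaled signal. With 2 libraries a group, the estimated depth was lowest in the csf1rDM libraries (5075000 and 4026000 reads).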
